A study of Mus musculus with 24 samples.

Results

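The integrated stress response genes described here were Atf4, Atf5, Ddit3, Ddit4, Trib3, Chac1, Sesn2, Asns and Slc7a11, 9 of the 19938 genes tested on Affymetrix whole-transcript arrays. They were chosen by symbol: a probe set had to be annotated to a member's symbol and to no other gene, and the brightest was to be kept where a gene had several. All 9 were found, each with 1 probe set, and none had a mean over all arrays in the dimmest 25% of genes (log2 values below 6.63). RNA came from D3 cells, an established line of mouse embryonic stem (ES) cells. Prmt1, the gene of the main protein arginine methyltransferase, was knocked down in one set of cells (siPRMT1), and the controls carried a scrambled sequence (siSCR). Both were measured in 4 states: undifferentiated on gelatin after feeder-free passages (ES), as 4-day embryoid bodies, which are aggregates grown without the cytokine LIF (day 4), and as embryoid bodies kept for 12 h with the vehicle DMSO or with all-trans retinoic acid (ATRA, 5 micromol as labelled). There were 24 arrays, 3 for each of 8 groups, and the labels call those 3 biological replicates. The sources used here do not say whether the knockdown was stable or transient, or whether each set of cells was 1 clone.

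The integrated stress response begins when 1 of several kinases, each activated by a different stress such as amino acid shortage or unfolded protein in the endoplasmic reticulum (ER), phosphorylates the translation initiation factor eIF2. Most protein synthesis then slows, while the mRNAs of a few transcription factors, ATF4 and ATF5 among them, are translated more. ATF4 activates genes for amino acid uptake and synthesis, for glutathione metabolism and for growth restraint, and in cells under lasting stress the factor CHOP, encoded by Ddit3, is induced as well. The arrays measured mRNA and therefore neither the phosphorylation of eIF2 nor the amount of ATF4 protein.

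ATF4 binds composite sites called C/EBP-ATF response elements, so the promoters of the 9 genes are shown where the core of that element, TGATGNAA, was found by letter on either strand. The windows were RefSeq promoters of build GRCm38.p6, 250 bases before to 50 after each annotated start. The core was found in 4 of the 9 genes, which have 10 windows because Atf5 has another start, and in 3.97% of all 32851 windows of this length. The ER stress element, CCAATN9CCACG, was in 0 of the 9 and in 0.119% of all windows, and the motifs do not overlap in any member. A match of letters is a description and says nothing of binding. The matches are in capitals in the sequences that follow, each written 5′ to 3′ on the gene's own strand. Chac1 had 1 match, on the opposite strand at bases -193 to -186, and its 250 bases before the start are chr2:119350992-119351241 on the plus strand.
Chac1: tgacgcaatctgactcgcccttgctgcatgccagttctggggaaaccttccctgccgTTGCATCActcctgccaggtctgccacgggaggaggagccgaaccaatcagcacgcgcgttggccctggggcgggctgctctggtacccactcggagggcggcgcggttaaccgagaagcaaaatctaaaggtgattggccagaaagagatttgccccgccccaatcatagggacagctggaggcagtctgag
Asns had 1 match on its own strand at -23 to -16, and its 250 bases are chr6:7693210-7693459 on the minus strand.
Asns: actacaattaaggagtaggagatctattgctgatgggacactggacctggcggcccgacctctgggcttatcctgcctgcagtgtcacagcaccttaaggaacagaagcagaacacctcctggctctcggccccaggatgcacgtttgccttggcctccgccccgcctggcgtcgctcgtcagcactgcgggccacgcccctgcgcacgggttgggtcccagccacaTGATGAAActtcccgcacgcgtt
Slc7a11 had 2 matches, at -66 to -59 on its own strand and at -47 to -40 on the opposite strand, within chr3:50443614-50443863 on the minus strand.
Slc7a11: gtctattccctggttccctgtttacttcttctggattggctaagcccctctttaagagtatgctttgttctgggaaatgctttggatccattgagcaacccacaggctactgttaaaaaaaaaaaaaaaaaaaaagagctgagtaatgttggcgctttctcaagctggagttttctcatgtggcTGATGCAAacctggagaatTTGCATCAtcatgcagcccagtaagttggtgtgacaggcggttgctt
In Trib3 the match lay after the start, at bases 15 to 22 on the opposite strand, within chr2:152344028-152344057 on the minus strand.
Trib3: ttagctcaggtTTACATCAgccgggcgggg

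The arrays were checked first. Prmt1 was lower in siPRMT1 in every state, at 38.6% of siSCR in ES cells, 64.6% at day 4, 46.2% with DMSO and 36.7% with ATRA (limma adjusted p between 4.99e-14 and 3.2e-07). The 6 siSCR arrays of DMSO and ATRA stood apart from the other 18 on the first principal component, with scores of 50.1 to 61.2 against -26.8 to -9.44, and 52.2% of the variance lay along it. Replicates of a group correlated over genes at 0.99 to 0.999, whereas arrays on opposite sides of that border did so at 0.951 to 0.973. In the text, tests of knockdown or vehicle that cross the border are kept to a paragraph of their own and the closing sections. The labels name no batch, and border and group cannot be told apart. The spans and the order of group means, and the difference in ATRA response between lines, use arrays from both sides. The members' spread within groups was also wider among the 6: the pooled SD was 0.27 against 0.0494 for Atf5, 0.15 against 0.0458 for Ddit3 and 0.154 against 0.0823 for Trib3. Markers of pluripotent stem cells averaged log2 values of 12.0 to 12.7 on every array, in all groups. Values are log2 expression values as deposited. A gene was called higher or lower at an adjusted p under 0.05 in limma (Benjamini-Hochberg over all 19938 genes), and n is 3 arrays per group throughout. An exact permutation test of 3 against 3 arrays cannot give a p below 0.1, so the tests rest on the fit across all genes. The number of arrays limits the precision, with a median standard error of 0.0932 on the log2 scale.

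The 9 genes differed widely in how far their group means ranged. Slc7a11 spanned 2.39 on the log2 scale between its highest and lowest group, Trib3 1.88, Ddit4 1.47, Chac1 1.40 and Sesn2 1.11. Atf5 spanned 0.88, Ddit3 0.58 and Atf4 0.51, and Asns, whose group means all lay between 13.17 and 13.43, only 0.26. These Asns values lie near the highest on the arrays (14.5), and how the signal responds at that level was not tested. Over the 8 groups the transcription factor genes at the head of the pathway ranged less than 5 of the other 6 genes, in log2 units. The highest group was siSCR ATRA for Trib3, Ddit4, Atf5 and Ddit3. The lowest was siSCR DMSO for Chac1 and siSCR ATRA for Sesn2. The spans of these genes therefore cross the border, and border and group cannot be told apart in them.

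**Figure D1:**
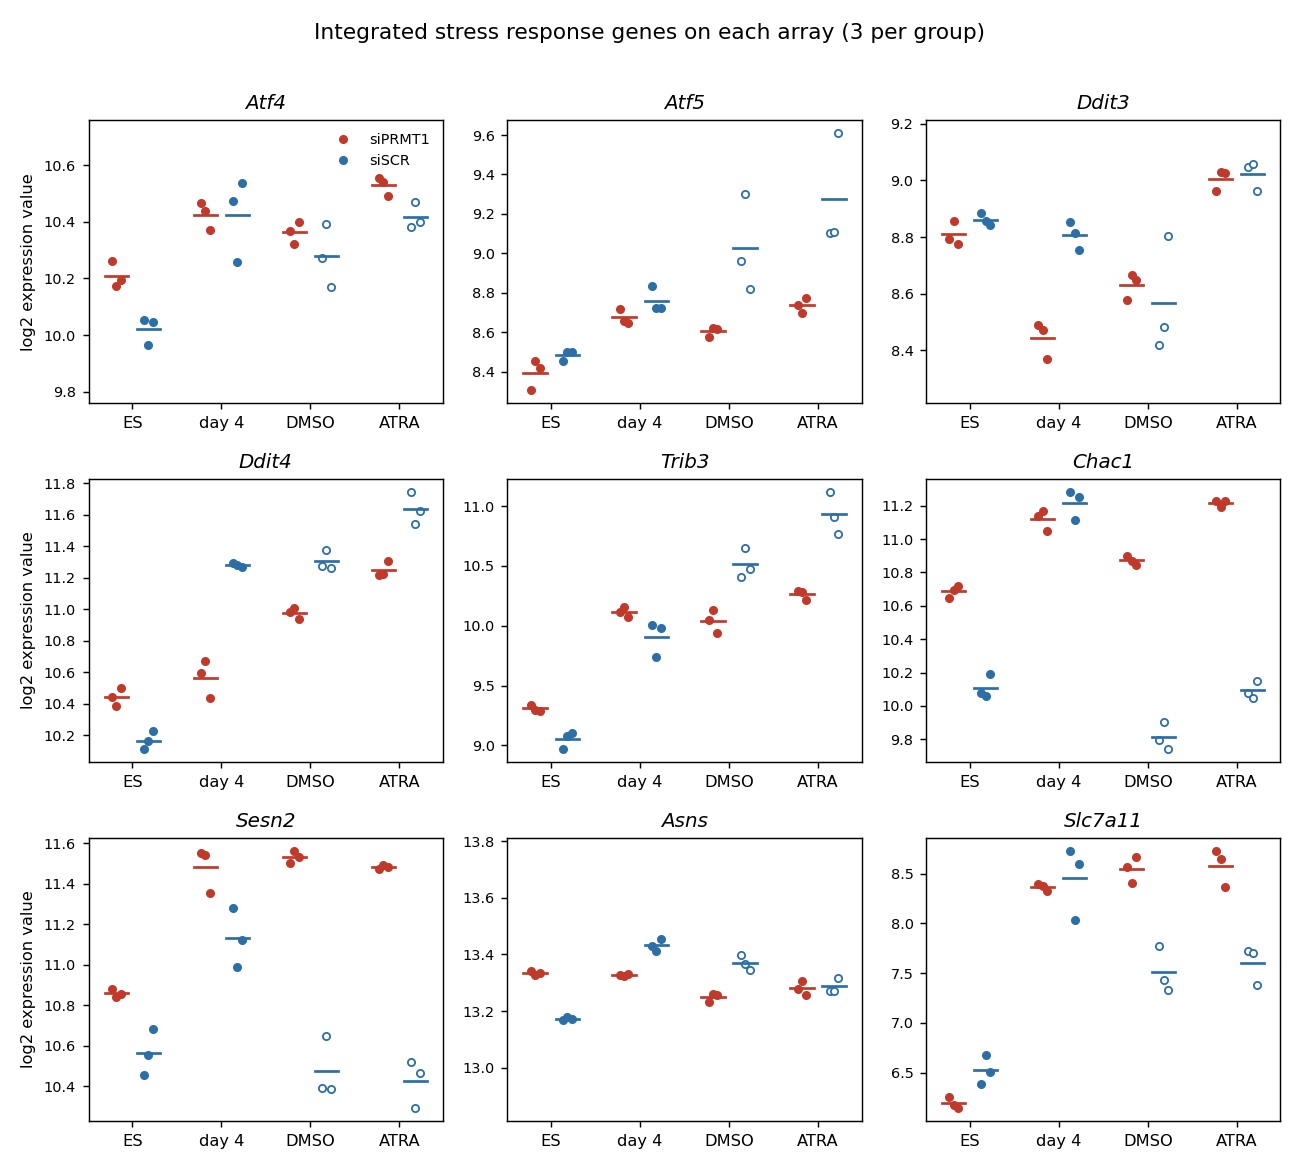
Log2 expression value (vertical axes) of each of the 9 genes on every array, by state, with siPRMT1 in red at the left and siSCR in blue at the right of each state. Dashes are means of 3 arrays and open symbols mark the 6 siSCR arrays of DMSO and ATRA. Slc7a11 and Trib3 lie lowest in ES cells of both lines, and Chac1 and Sesn2 of siSCR lie far below siPRMT1 with DMSO and ATRA.

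Embryoid body formation raised most of the 9 genes in both lines. In siPRMT1 6 of 9 were higher at day 4 than in ES cells and 1 was lower, where 23% of all genes were called higher and 18.4% lower. In siSCR 7 of 9 were higher and 2 were not called, where 14.5% of all genes were called higher. The median difference of the 9 was 0.28 in siPRMT1, beside -0.04 over all genes, and 0.57 in siSCR, beside 0.00067 over all genes. Chac1, Sesn2, Trib3, Slc7a11 and Atf4 were called higher in both lines.

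Slc7a11, which encodes the light chain of the cystine and glutamate exchanger that feeds glutathione synthesis, changed most. In siPRMT1 it read 8.40, 8.38 and 8.32 at day 4, against 6.26, 6.18 and 6.14 in ES cells. The siSCR values were 8.73, 8.04 and 8.59 at day 4, against 6.39, 6.67 and 6.50 in ES cells. Every day 4 array lay more than 1 log2 unit above every ES array of its line. The rise was 4.52-fold in siPRMT1 (95% interval 3.65 to 5.59, adjusted p = 2.01e-10) and 3.82-fold in siSCR (3.08 to 4.72, adjusted p = 1.55e-09). In ES cells all siPRMT1 values, and the siSCR values except 6.67, were below the level that bounds the dimmest 25% of genes. Without detection calls it cannot be said how much of these ES values is background, so both rises carry this limit.

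Trib3 encodes a pseudokinase that binds ATF4 and the kinase AKT and dampens both. It read 10.11, 10.16 and 10.07 at day 4 in siPRMT1, against 9.34, 9.30 and 9.29 in ES cells. In siSCR it read 10.01, 9.74 and 9.98 at day 4, against 8.97, 9.08 and 9.11 in ES cells. The groups did not overlap in either line, and the rises of 1.75-fold in siPRMT1 and 1.81-fold in siSCR were both called (adjusted p = 1.53e-07 and 7.69e-08). Sesn2, the gene of a stress-induced inhibitor of the growth kinase complex mTORC1, rose 1.54-fold in siPRMT1 and 1.48-fold in siSCR (adjusted p = 4.06e-06 and 1.84e-05).

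Chac1 encodes an enzyme that degrades glutathione. Its day 4 values in siPRMT1 were 11.14, 11.17 and 11.05, against 10.65, 10.70 and 10.72 in ES cells. In siSCR they were 11.28, 11.11 and 11.25, against 10.08, 10.06 and 10.19 in ES cells. Day 4 values of both lines shared a range, and the ES values of siPRMT1 lay above all those of siSCR. The rise was 1.35-fold in siPRMT1 (1.24 to 1.47, adjusted p = 3.54e-06) and 2.15-fold in siSCR (1.98 to 2.34, adjusted p = 4.04e-12).

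Ddit4, also called Redd1, encodes another inhibitor of mTORC1 and answers to low oxygen as well as to ATF4. In siPRMT1 it read 10.59, 10.67 and 10.43 at day 4, against 10.45, 10.38 and 10.50 in ES cells. The siSCR values were 11.29, 11.28 and 11.27 at day 4, against 10.11, 10.16 and 10.22 in ES cells. The groups overlapped in siPRMT1 and were far apart in siSCR. The rise in siSCR was 2.16-fold (1.97 to 2.37, adjusted p = 1.64e-11), and the siPRMT1 difference of 0.12 (-0.01 to 0.25) was not called, although it was without siPRMT1 day 4 replicate 3 (0.19, adjusted p = 0.0253). Asns, the asparagine synthetase gene, read 13.33, 13.32 and 13.33 at day 4 in siPRMT1, against 13.34, 13.33 and 13.33 in ES cells. Asns read 13.43, 13.41 and 13.45 at day 4 in siSCR, against 13.17, 13.18 and 13.17 in ES cells. Asns was therefore higher at day 4 in siSCR, by 0.26 ± 0.039 (SE, adjusted p = 2.29e-05), and the siPRMT1 difference of -0.01 (-0.09 to 0.08) was not called. With arrays scaled to one SD that siPRMT1 difference was -0.17 and was called (adjusted p = 0.0139).

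Among the transcription factor genes, Atf4 was higher at day 4 in siPRMT1 by 0.21 ± 0.066 (adjusted p = 0.0127) and in siSCR by 0.40 ± 0.066 (adjusted p = 6.3e-05). The siPRMT1 call was lost without siPRMT1 day 4 replicate 1 (adjusted p = 0.0521), with quantile normalization (0.12, adjusted p = 0.114) and with arrays scaled to one SD (0.14, adjusted p = 0.0714). Atf5, a relative of ATF4 that is controlled in the same way, was higher by 0.28 ± 0.11 in siPRMT1 (adjusted p = 0.0448). That call was kept under 7 of 16 alternatives (adjusted p as low as 0.000131). It was lost without any 1 of the 6 siPRMT1 arrays compared (adjusted p between 0.057 and 0.136). The replicate block, quantile normalization and scaling to one SD lost it as well (adjusted p up to 0.146). Atf5 in siPRMT1 read 8.65 to 8.72 at day 4, against 8.30 to 8.45 in ES cells. In siSCR the Atf5 difference was of like size, 0.28 ± 0.11, and was not called (adjusted p = 0.0683). It was called under 6 of 16 alternatives (adjusted p as low as 0.000233). In siSCR it read 8.72 to 8.84 at day 4, against 8.46 to 8.50 in ES cells, so neither line's groups overlapped. The standard error of 0.11 is shared with the 6 arrays that stood apart, where the pooled SD of Atf5 was 0.27 against 0.0494. Once those arrays were out of the fit, the standard error in siSCR was 0.0479 (adjusted p = 0.000233). Ddit3, the CHOP gene, went the other way in siPRMT1. It read 8.49, 8.47 and 8.37 at day 4 in siPRMT1, against 8.79, 8.86 and 8.78 in ES cells, and 8.85, 8.81 and 8.75 at day 4 in siSCR, against 8.88, 8.86 and 8.84 in ES cells. The 3 siPRMT1 day 4 arrays were the lowest of these 12, with a fall of 0.36 on the log2 scale (adjusted p = 0.000331). The siSCR difference of -0.05 (-0.20 to 0.10) was not called.

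**Figure D2:**
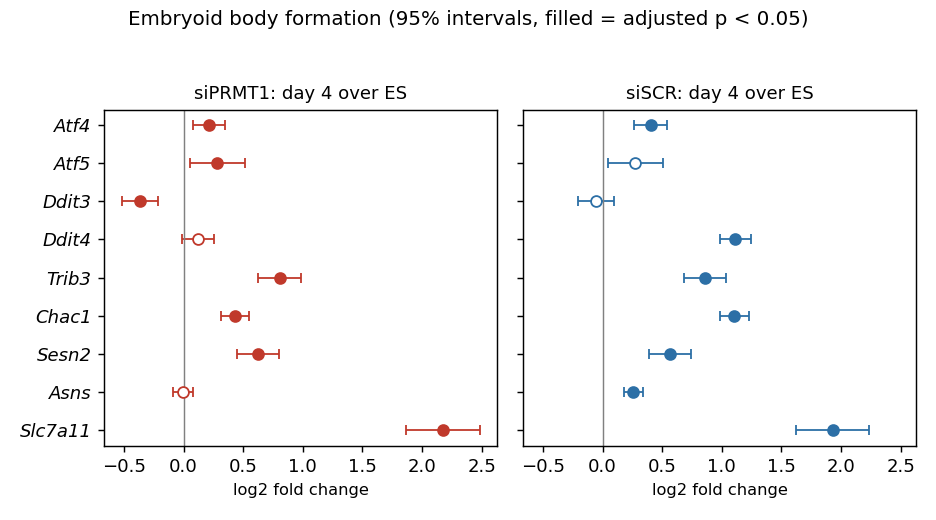
Log2 fold change of each gene (horizontal axes), day 4 over ES, in siPRMT1 at the left and siSCR at the right. Points are limma estimates from 3 arrays per group, bars are 95% intervals, and filled points have an adjusted p under 0.05. Slc7a11 changed most in both lines (2.18 and 1.93), Ddit4 rose in siSCR (1.11) and was not called in siPRMT1 (0.12), and the Atf4 and Atf5 calls in siPRMT1 are lost under quantile normalization and scaling to one SD.

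Whether embryoid body formation changed the genes by the same amount in both lines was tested by the interaction, the siPRMT1 change minus the siSCR change. This equals the knockdown effect at day 4 minus that in ES cells. The interaction was called below 0 for 4 of the 9, where 8.83% of all genes were called below 0 and 15% above. Ddit4 had -0.99 ± 0.089 (adjusted p = 1.13e-07) and Chac1 -0.67 ± 0.081 (adjusted p = 3.9e-06), followed by Ddit3 with -0.31 ± 0.10 (adjusted p = 0.0307) and Asns with -0.26 ± 0.055 (adjusted p = 0.00122). The Ddit3 call was lost without siPRMT1 ES replicate 2, siPRMT1 day 4 replicate 3, siSCR ES replicate 2 or 3, or siSCR day 4 replicate 1 or 2 (adjusted p between 0.0519 and 0.0803). For the other 5 genes the interaction was not called. Its 95% interval ran between -0.30 and 0.20 for Trib3, -0.19 and 0.31 for Sesn2, -0.19 and 0.68 for Slc7a11, -0.32 and 0.33 for Atf5, and -0.38 and 0.01 for Atf4. Atf4 was called as well without siSCR day 4 replicate 2 (-0.27, adjusted p = 0.0279), under quantile normalization (-0.27, adjusted p = 0.0177), under scaling to one SD (-0.25, adjusted p = 0.042) and with array weights (adjusted p = 0.037). The median of the 9 was -0.19, beside -0.02 over all genes.

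Other cell types changed over the same step, and in bulk RNA fewer cells of a type and less RNA per cell cannot be told apart. Over that step 23% of all genes were called higher and 18.4% lower in siPRMT1, and 14.5% and 13.7% in siSCR. Of 17 measured fibroblast and feeder markers 14 were lower at day 4 in each line. Their mean per array was 7.47 to 7.48 in siPRMT1 day 4, against 8.44 to 8.49 in ES cells, and 7.66 to 7.81 in siSCR day 4, against 8.86 to 8.89. Endoderm markers were higher for 10 of 10 in siPRMT1, with array means of 10.3 to 10.4 at day 4 against 8.50 to 8.68 in ES cells, and for 9 of 10 in siSCR, with 9.43 to 9.63 against 8.44 to 8.49. Pluripotency markers were 5 lower of 8 in siPRMT1, and 2 higher and 1 lower in siSCR. Their interaction was called below 0 for 5 of 8, where 8.83% of all genes were. All 8 values lay below 0 (highest -0.0059, median -0.35). The files hold no detection calls, so no marker can be called at 0. The part of these cells in the results was not tested.

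The wider pathway moved as follows over embryoid body formation. In siPRMT1 23% of all genes were called higher over this step and 18.4% lower, and in siSCR 14.5% and 13.7%. Of 17 other measured ATF4 pathway targets, 9 were higher and 1 lower in siPRMT1 (median 0.28), and 14 were higher in siSCR (median 0.46). The largest rises in both were in the stanniocalcin gene Stc2 (1.53 in siPRMT1 and 2.18 in siSCR), the cystathionine gamma-lyase gene Cth (1.30 and 1.53) and the cationic amino acid transporter gene Slc7a3 (1.25 and 1.36). Atf3, which encodes a stress-induced transcription factor, fell by 0.65 on the log2 scale in siPRMT1. Of 9 aminoacyl-tRNA synthetase genes 5 were higher in each line, led by Tars (0.48), Eprs (0.28) and Gars (0.24) in siPRMT1 and by Tars (0.35), Gars (0.29) and Cars (0.28) in siSCR. Genes of the parallel ER arms, which the factors ATF6 and XBP1 control, were 16 higher and 1 lower of 20 in siPRMT1 (median 0.29), and 5 higher and 1 lower in siSCR (median 0.08). Dnajb11 (0.81), Herpud1 (0.66) and Dnajc3 (0.52) led them in siPRMT1, and Herpud1 (0.78), Dnajc3 (0.35) and Syvn1 (0.20) in siSCR, while the co-chaperone gene Dnajb9 was lower in both (-0.28 and -0.25). Among 7 measured eIF2 kinases and phosphatase regulators, the heme-regulated kinase gene Eif2ak1 (0.41) and Ppp1r15b (0.19) were higher and Eif2ak2 (-0.52) and Ppp1r15a (-0.33) lower in siPRMT1. In siSCR Eif2ak3 (0.28), the gene of the ER stress kinase PERK, was higher, and Eif2ak2 (-0.61), that of the double-stranded RNA kinase PKR, was lower. The difference between lines was called below 0 for 7 of the 17 ATF4 targets, led by Atf3 (-0.84), Nupr1 (-0.82) and Vldlr (-0.67). It was called above 0 for 6 of the 20 ER genes, led by Dnajb11 (0.68), Pdia4 (0.40) and Hspa5 (0.27). Of all genes 8.83% were called below 0 in this difference and 15% above.

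In undifferentiated ES cells, the question was which of the 9 genes differed between siPRMT1 and siSCR before differentiation. With the knockdown 5 of 9 were higher and 4 were not called, where 7.63% of all genes were called higher and 11.2% lower. The median of the 9 was 0.19, beside 0.0061 over all genes. These comparisons use the same ES arrays as embryoid body formation and are not independent of it.

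Chac1 led, at 10.65, 10.70 and 10.72 in siPRMT1 ES cells, against 10.08, 10.06 and 10.19 in siSCR ES cells. The lowest siPRMT1 array was far above the highest siSCR array, and the level was 1.49-fold higher (95% interval 1.37 to 1.62, adjusted p = 5.37e-07). Both mTORC1 inhibitor genes were higher as well. Sesn2 read 10.88, 10.84 and 10.86 in siPRMT1, against 10.45, 10.55 and 10.68 in siSCR, a 1.23-fold difference (1.09 to 1.39, adjusted p = 0.0161). Ddit4 read 10.45, 10.38 and 10.50 in siPRMT1, against 10.11, 10.16 and 10.22 in siSCR, a 1.21-fold difference (1.11 to 1.33, adjusted p = 0.00329). Neither gene's groups overlapped, but the Sesn2 call was lost without replicate 1 of siSCR (0.24, adjusted p = 0.0913) or of siPRMT1 (0.28, adjusted p = 0.0524).

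Asns was higher by a small and even step. It read 13.34, 13.33 and 13.33 in siPRMT1 ES cells, against 13.17, 13.18 and 13.17 in siSCR ES cells, or 1.12-fold (1.06 to 1.18, adjusted p = 0.00541). With only the 2 groups compared in the fit its adjusted p was 0.0658. Trib3 read 9.34, 9.30 and 9.29 in siPRMT1, against 8.97, 9.08 and 9.11 in siSCR. Its 1.20-fold difference (1.06 to 1.35, adjusted p = 0.0371) was lost without any 1 of the 6 ES arrays (adjusted p between 0.0534 and 0.149).

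Atf4 itself read 10.26, 10.17 and 10.19 in siPRMT1 ES cells, against 10.05, 9.96 and 10.05 in siSCR ES cells. These values did not overlap, yet the difference of 0.19 ± 0.066 missed the threshold (adjusted p = 0.0507) and passed it under 7 of the alternatives (adjusted p between 0.00727 and 0.0331). Slc7a11 read 6.26, 6.18 and 6.14 in siPRMT1, against 6.39, 6.67 and 6.50 in siSCR, and its difference of -0.33 (-0.64 to -0.02) was not called (adjusted p = 0.137). Atf5 (-0.09, interval -0.32 to 0.14) and Ddit3 (-0.05, interval -0.20 to 0.10) were not called.

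With the knockdown in ES cells 7.63% of all genes were called higher and 11.2% lower. Among the other ATF4 pathway targets 8 of 17 were higher in siPRMT1 ES cells and 9 were not called, with a median of 0.16. Atf3 (1.26 ± 0.077) was far ahead of Stc2 (0.38) and the alanine transaminase gene Gpt2 (0.28). Of 9 tRNA synthetase genes 4 were higher, led by Cars (0.37), Mars1 (0.18) and Sars (0.17). The ER list showed no such lean: Herpud1 (0.41) was higher, Dnajb11 (-0.35), Sel1l (-0.19) and Pdia4 (-0.19) were lower, and 16 of 20 were not called. Of the regulators of eIF2, Ppp1r15a, which encodes the stress-induced phosphatase subunit GADD34, was higher (0.34), and the kinase genes Eif2ak1 (-0.34) and Eif2ak2 (-0.29) were lower. Fibroblast and feeder markers moved in the same arrays, with 11 of 17 lower in siPRMT1 and array means of 8.44 to 8.49, against 8.86 to 8.89 in siSCR. Pluripotency markers were higher for 4 of 8, with array means of 12.6 to 12.7 against 12.4 to 12.5 in siSCR. Their part in the members' differences was not tested.

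At day 4 the knockdown had another pattern. Of the 9 genes 1 was higher and 2 were lower, where 11.4% of all genes were called higher and 7.01% lower, and the median of the 9 was -0.09, beside -0.02 over all genes. Sesn2 was again higher in siPRMT1. It read 11.55, 11.55 and 11.35 in siPRMT1 day 4, against 11.28, 10.99 and 11.12 in siSCR day 4, with no overlap and a 1.28-fold difference (1.13 to 1.44, adjusted p = 0.00496).

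Ddit4 was lower in siPRMT1, opposite to ES cells. It read 10.59, 10.67 and 10.43 in siPRMT1 day 4, against 11.29, 11.28 and 11.27 in siSCR day 4. All 3 siPRMT1 arrays lay far under the siSCR arrays, at 61.0% of their level (adjusted p = 9.06e-08). Ddit3 was lower too, at 8.49, 8.47 and 8.37 in siPRMT1, against 8.85, 8.81 and 8.75 in siSCR, or 77.8% of the siSCR level (adjusted p = 0.00105). Its groups did not overlap.

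For the other 6 genes no difference was called at day 4. Chac1 differed by -0.10 (-0.22 to 0.02), Atf4 by 0.00083 (-0.14 to 0.14), Atf5 by -0.09 (-0.31 to 0.14) and Slc7a11 by -0.09 (-0.39 to 0.22). Trib3 (0.21, adjusted p = 0.106) and Asns (-0.10, adjusted p = 0.0694) were both called when the 6 siSCR arrays of DMSO and ATRA were left out of the fit (adjusted p = 0.0345 and 0.0334) or arrays were weighted, with 5 of 9 genes called in each. Asns alone was also called with arrays scaled to one SD (-0.19, adjusted p = 0.0177), without the dimmest genes and with trend and robust variance.

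With the knockdown at day 4 11.4% of all genes were called higher and 7.01% lower. Of the other ATF4 pathway targets 1 was higher and 4 lower of 17 at day 4. Atf3 was higher (0.41), and Nupr1 (-0.65), Vldlr (-0.39) and Stc2 (-0.28) were lowest. The tRNA synthetase genes Wars (0.29) and Tars (0.19) were higher and 7 of 9 were not called. ER chaperone and degradation genes were 8 higher and 12 not called of 20, with a median of 0.15, led by Dnajb11 (0.33), Herpud1 (0.29) and Atf6 (0.24). Of the eIF2 kinases and regulators Eif2ak1 was higher (0.21) and 6 of 7 were not called. Endoderm markers were higher in siPRMT1 for 9 of 10, with array means of 10.3 to 10.4 against 9.43 to 9.63 in siSCR. Fibroblast and feeder markers were lower for 7 of 17, and pluripotency markers for 4 of 8. Their part in the members' differences was not tested.

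**Figure D3:**
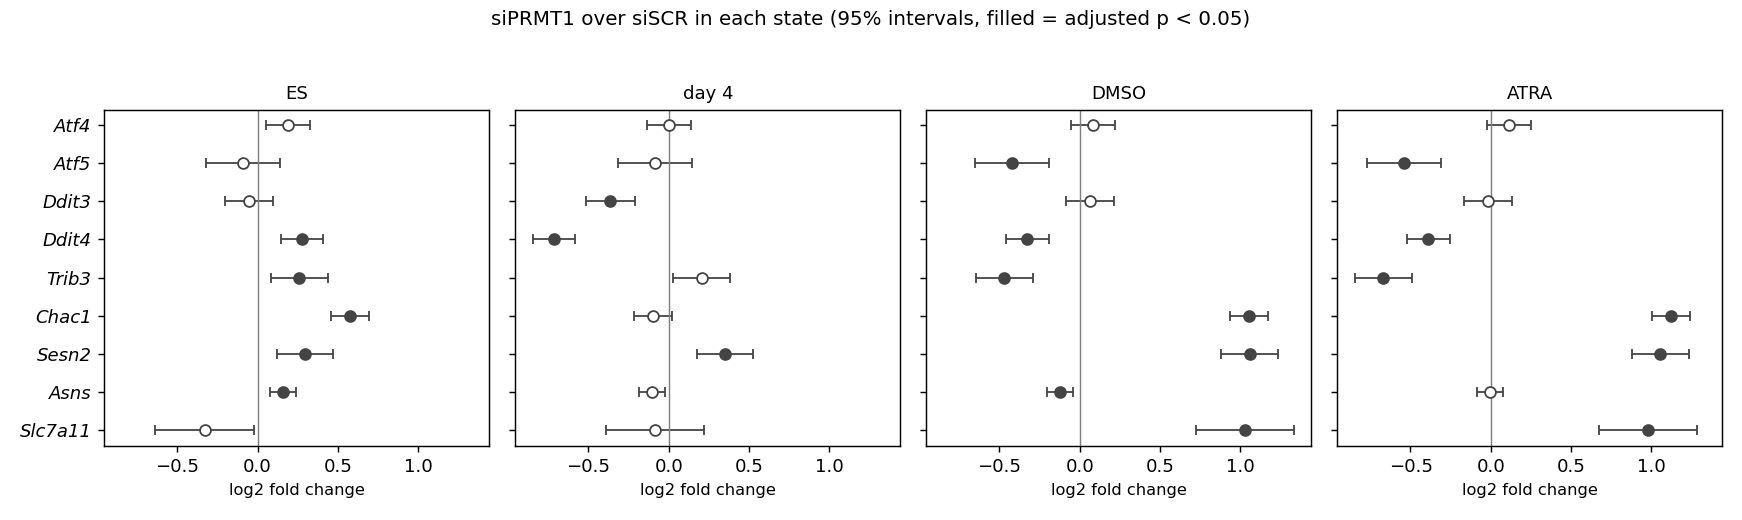
Log2 fold change of each gene (horizontal axes), siPRMT1 over siSCR, in ES cells, day 4, DMSO and ATRA embryoid bodies. Points are limma estimates from 3 arrays per group, bars are 95% intervals, and filled points have an adjusted p under 0.05. Ddit4 is above 0 in ES cells (0.28) and below 0 at day 4 (-0.71), while Chac1, Sesn2 and Slc7a11 are near 1 with DMSO and ATRA, where siSCR arrays from across the border enter, and Atf4 there turns below 0 under quantile normalization.

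The 12 h treatment with ATRA, the ligand of the retinoic acid receptors, was set against DMSO within each line. Ddit3, Ddit4 and Chac1 were higher with ATRA in both lines. In siPRMT1 3 of 9 were higher and 6 were not called, where 6.05% of all genes were called higher and 5.94% lower. In siSCR 4 of 9 were higher and 5 not called, where 11.2% of all genes were called higher and 12.2% lower. The medians of the 9 were 0.17 in siPRMT1 and 0.25 in siSCR, beside 0.03 over all genes in each.

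Ddit3 rose most in both lines. In siPRMT1 it read 8.96, 9.03 and 9.03 with ATRA, against 8.58, 8.67 and 8.65 with DMSO. In siSCR it read 9.05, 9.06 and 8.96 with ATRA, against 8.42, 8.48 and 8.80 with DMSO. The ATRA values lay above the DMSO values in each line, and DMSO replicate 3 of siSCR was nearer to them than its replicates. The rise was 1.30-fold in siPRMT1 (1.17 to 1.44, adjusted p = 0.000944) and 1.37-fold in siSCR (1.24 to 1.52, adjusted p = 0.000123). Chac1 read 11.23, 11.19 and 11.23 with ATRA in siPRMT1, against 10.90, 10.87 and 10.84 with DMSO, a 1.27-fold rise (adjusted p = 0.000204). In siSCR it read 10.08, 10.05 and 10.15 with ATRA, against 9.80, 9.91 and 9.74 with DMSO, a 1.21-fold rise (adjusted p = 0.0016). The groups did not overlap in either line.

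Ddit4 read 11.22, 11.22 and 11.31 with ATRA in siPRMT1, against 10.98, 11.01 and 10.94 with DMSO, a 1.21-fold rise (adjusted p = 0.00523). In siSCR it read 11.75, 11.54 and 11.62 with ATRA, against 11.27, 11.37 and 11.26 with DMSO, a 1.26-fold rise (adjusted p = 0.000742). Again no groups overlapped. Trib3 read 10.29, 10.28 and 10.21 with ATRA in siPRMT1, against 10.05, 10.13 and 9.94 with DMSO. Its difference of 0.22 (0.04 to 0.40) was not called (adjusted p = 0.108). It was called without the 6 siSCR arrays that stood apart (adjusted p = 0.0319), under quantile normalization (adjusted p = 0.0463) and with array weights (adjusted p = 4.97e-05). In siSCR it read 11.12, 10.91 and 10.77 with ATRA, against 10.41, 10.65 and 10.47 with DMSO, a 1.34-fold rise (adjusted p = 0.00139). All Trib3 values with ATRA exceeded those with DMSO in the same line.

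Atf4 (0.17 in siPRMT1 and 0.14 in siSCR), Atf5 (0.13 and 0.25), Sesn2 (-0.05 in each), Asns (0.03 and -0.08) and Slc7a11 (0.04 and 0.09) were not called in either line. Atf4 was called under 3 of 16 alternatives in siPRMT1 (adjusted p as low as 0.000246) and 2 of 15 in siSCR (adjusted p = 0.0179 and 0.0224). Asns in siSCR was called after median centring (-0.15, adjusted p = 0.0135) and with trend and robust variance (adjusted p = 0.016). Atf5 in siPRMT1 was called with array weights (adjusted p = 0.022). Atf5 in siSCR was called without siSCR DMSO replicate 2 (0.38, adjusted p = 0.0145) or siSCR ATRA replicate 1 (0.33, adjusted p = 0.0457). The siSCR calls leaned on the spread shared with other groups: with only the 2 siSCR groups in the fit 0 of the 9 were called by limma, although 4 had an unadjusted p under 0.05. The difference of the ATRA response between lines was called for 0 of the 9 genes in limma, of which 0 had an unadjusted p under 0.05, where 3.24% of all genes were called. Its 95% interval ran between -0.45 and 0.05 for Trib3, -0.29 and 0.13 for Ddit3, -0.25 and 0.12 for Ddit4, and -0.10 and 0.24 for Chac1. For the others it ran between -0.17 and 0.22 for Atf4, -0.44 and 0.21 for Atf5, -0.25 and 0.25 for Sesn2, -0.0011 and 0.23 for Asns, and -0.48 and 0.38 for Slc7a11. Since this difference sets a response among the 6 arrays that stood apart against one among the other 18, the border and the line cannot be told apart in it.

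**Figure D4:**
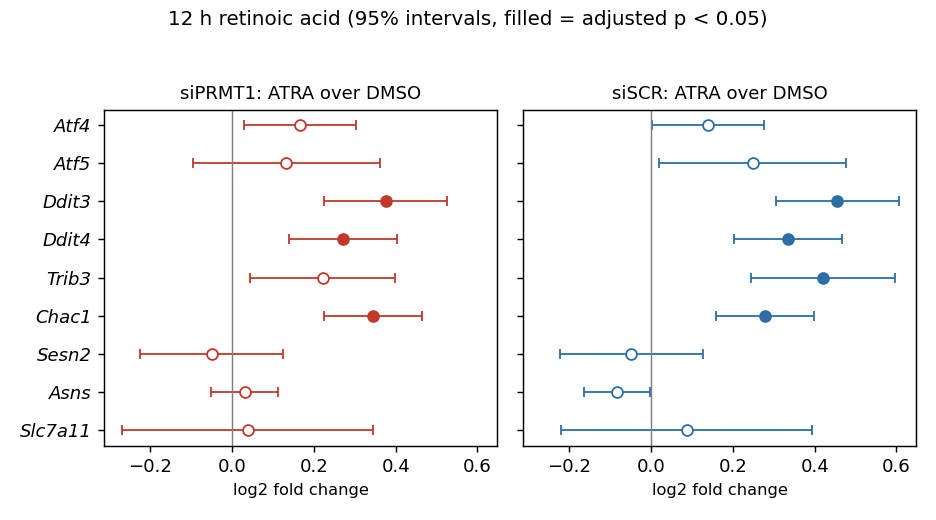
Log2 fold change of each gene (horizontal axes) after 12 h of ATRA over DMSO, in siPRMT1 at the left and siSCR at the right. Points are limma estimates from 3 arrays per group, bars are 95% intervals, and filled points have an adjusted p under 0.05. Ddit3, Ddit4 and Chac1 are filled in both lines, between 0.27 and 0.46, and Trib3 in siSCR (0.42).

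The wider pathway had no common direction with ATRA. In siPRMT1 6.05% of all genes were called higher with ATRA and 5.94% lower, and in siSCR 11.2% and 12.2%. Of 17 other ATF4 targets 4 were higher and 2 lower in siPRMT1, with Vldlr (0.44), Atf3 (0.34) and Nupr1 (0.33) furthest above and Slc7a3 (-0.40) and Slc38a2 (-0.15) below. In siSCR Fgf21 (0.41) and Nupr1 (0.28) were higher and Stc2 (-0.43), Slc7a3 (-0.31) and Slc38a2 (-0.16) lower. The ER genes Herpud1 (0.24) and Xbp1 (0.24) were higher in siPRMT1, and 6 of 20 were higher in siSCR, led by Herpud1 (0.37), Xbp1 (0.37) and Creld2 (0.27). Of the tRNA synthetase genes Iars (0.13) was higher in siPRMT1 and Sars (-0.14) lower in siSCR. By limma 0 of 7 eIF2 kinases and regulators were called in either line, and 1 in each line had an unadjusted p under 0.05. Endoderm markers with ATRA were 1 higher and 2 lower of 10 in siPRMT1, and 1 higher and 4 lower in siSCR, and their part was not tested.

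DMSO embryoid bodies were compared with day 4 embryoid bodies, which lie on 1 side of the border in siPRMT1 only. The DMSO groups are labelled with 12 h of treatment and the day 4 groups with none, so vehicle and culture time cannot be told apart. There 1 of the 9 genes was higher and 8 were not called, where 0.306% of all genes were called higher and 0.155% lower. That gene was Ddit4, at 10.98, 11.01 and 10.94 with DMSO, against 10.59, 10.67 and 10.43 at day 4. The groups did not overlap, and the difference was 1.33-fold (1.21 to 1.46, adjusted p = 0.0027). Chac1 differed by -0.25 and was not called (adjusted p = 0.0608), at 10.90, 10.87 and 10.84 with DMSO, against 11.14, 11.17 and 11.05 at day 4. Chac1 was called under 4 alternatives. The other differences were 0.19 for Ddit3, 0.18 for Slc7a11, 0.05 for Sesn2, -0.06 for Atf4, -0.07 for Atf5, -0.07 for Trib3 and -0.08 for Asns. Of 10 endoderm markers 4 were higher with DMSO, namely Afp (0.88), Ttr (0.63), Apoa1 (0.63) and Apob (0.61), and their part was not tested.

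The comparisons across the border had the largest knockdown differences, in a setting where most genes were called. With DMSO 3 of 9 were higher in siPRMT1 and 4 lower, where 31.3% of all genes were called higher and 34.6% lower. With ATRA 3 were higher and 3 lower, where 32.2% were called higher and 38% lower. Chac1 read 10.90, 10.87 and 10.84 in siPRMT1 DMSO, against 9.80, 9.91 and 9.74 in siSCR DMSO, and was 2.08-fold higher there and 2.18-fold higher with ATRA. Sesn2 read 11.50, 11.57 and 11.54 in siPRMT1 DMSO, against 10.39, 10.65 and 10.39 in siSCR DMSO, and was 2.09-fold higher there and 2.08-fold with ATRA. Slc7a11 read 8.56, 8.41 and 8.66 in siPRMT1 DMSO, against 7.77, 7.43 and 7.34 in siSCR DMSO, and was 2.04-fold higher there and 1.97-fold with ATRA. In all of these the siPRMT1 arrays lay above every siSCR array. Endoderm markers were higher in siPRMT1 for 9 of 10 in both states, and their part was not tested.

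Lower in siPRMT1 were Trib3 (-0.47 with DMSO and -0.67 with ATRA), Atf5 (-0.42 and -0.54) and Ddit4 (-0.33 and -0.39). Asns was lower with DMSO (-0.12) and not called with ATRA (-0.01). Its DMSO call was lost with only the groups compared (adjusted p = 0.0868), and scaling to one SD moved it to -0.61 with DMSO and to -0.60 with ATRA (adjusted p = 3.67e-09). Ddit3 was not called (0.06 and -0.02), but it was with DMSO without siSCR DMSO replicate 3 (0.18, adjusted p = 0.00908) and with ATRA under quantile normalization (-0.32, adjusted p = 0.00172). Atf4 was not called (0.08 and 0.11) and turned to -0.18 in both states under quantile normalization and to -0.16 with ATRA under scaling to one SD. In siSCR, DMSO against day 4 gave 2 higher and 4 lower of 9, where 30.8% of all genes were called higher and 30.3% lower. Chac1 (-1.40), Slc7a11 (-0.94), Sesn2 (-0.66) and Ddit3 (-0.24) were lower, and Trib3 (0.60) and Atf5 (0.27) higher. Atf4 (-0.15), Asns (-0.06) and Ddit4 (0.02) were not called. Atf5 was not called without siSCR DMSO replicate 2 (0.13, adjusted p = 0.29), siSCR day 4 replicate 2 (adjusted p = 0.094) or replicate 3 (adjusted p = 0.106). Ddit3 came to -0.01 under quantile normalization (adjusted p = 0.899) and was not called after median centring (adjusted p = 0.0827) or without siSCR DMSO replicate 1 (-0.16, adjusted p = 0.0601). With only the groups compared neither was called (adjusted p = 0.0939 for Atf5 and 0.0885 for Ddit3). Atf4 was called without siSCR day 4 replicate 2 (-0.23, adjusted p = 0.00431) or siSCR DMSO replicate 2 (-0.20, adjusted p = 0.0165). The difference between lines in this step was called above 0 for 5 of the 9 and below 0 for 1, where 25.1% and 19.5% of all genes were. Chac1 (1.15), Slc7a11 (1.12), Sesn2 (0.71), Ddit3 (0.43) and Ddit4 (0.39) were above 0 and Trib3 (-0.68) below. Ddit3 came to 0.22 under quantile normalization (adjusted p = 0.142) and Ddit4 to 0.12 under scaling to one SD (adjusted p = 0.304). Atf5 (-0.34), Atf4 (0.08) and Asns (-0.02) were not called, and without siSCR DMSO replicate 3 Atf5 was (-0.44, adjusted p = 0.0257). Asns was called under quantile normalization (-0.14, adjusted p = 0.0391) and under scaling to one SD (-0.42, adjusted p = 0.000119).

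By group, the order of levels separated the genes into a few patterns. Ddit4 and Trib3 were highest in siSCR ATRA, then siSCR DMSO, and lowest in siSCR ES cells, and for Ddit4 siSCR DMSO and siSCR day 4 overlapped, as did siSCR day 4 and siPRMT1 ATRA. For Trib3 siPRMT1 day 4 overlapped siPRMT1 DMSO, and that overlapped siSCR day 4. Atf5 was highest in siSCR ATRA as well and lowest in siPRMT1 ES cells, with overlap between neighbours in each of the top 5 groups. Chac1 was highest in siPRMT1 ATRA, siSCR day 4 and siPRMT1 day 4, which overlapped each in turn, and lowest in siSCR DMSO. Sesn2 had its 4 highest means in siPRMT1 DMSO, ATRA and day 4 and then siSCR day 4, and its lowest in siSCR ATRA and DMSO, which overlapped each other and of which DMSO overlapped siSCR ES. Slc7a11 had overlapping values in siPRMT1 ATRA, siPRMT1 DMSO, siSCR day 4 and siPRMT1 day 4. Its mean in siSCR ATRA, which overlapped siSCR DMSO, lay 0.77 below that in siPRMT1 day 4, without overlap. The mean in siSCR ES lay 0.99 below that in siSCR DMSO, again without overlap, and siPRMT1 ES was lowest. Ddit3 was highest with ATRA in both lines, which overlapped, and lowest in siPRMT1 day 4, which overlapped siSCR DMSO. Atf4 was highest in siPRMT1 ATRA and lowest in siSCR ES, each clear of its neighbour, and all neighbours between overlapped. Asns was highest in siSCR day 4 and lowest in siSCR ES, clear of their neighbours.

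Over the 18 arrays on one side of the border, the members' levels were alike to different degrees. Pearson's r is given as a description over arrays that fall into 6 groups. It was 0.956 between Trib3 and Sesn2, 0.937 between Atf4 and Chac1 and 0.934 between Trib3 and Slc7a11, and lowest between Ddit3 and Sesn2, at -0.345. Among all genes, those with the pattern most like Chac1 were Pck2 (0.988), Cyb5r2 (0.965) and Cdkn1b (0.958). For Trib3 they were Gars (0.988), Pcx (0.988) and Ebf1 (0.986), and for Sesn2 Gadd45a (0.98), Gata4 (0.979) and Mex3c (0.978). Ddit4 was most like Slc16a3 (0.96), Vldlr (0.945) and Tmem63a (0.934), and Slc7a11 most like Epp13 (0.988), Nynrin (0.985) and Slc38a1 (0.98). Asns came closest to Chd2 (0.947), Dhtkd1 (0.942) and Slc25a13 (0.939), and Atf4 to Cyb5r2 (0.946), Sdr39u1 (0.946) and Ebf1 (0.944). Atf5 was nearest to Inhbe (0.937), Mirt1 (0.935) and Tarbp1 (0.929), and Ddit3 to Alpk3 (0.89), Spsb1 (0.888) and Arih2 (0.88).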

How the data were processed

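Biotinylated cDNA of total RNA was hybridised to the arrays, per the labels' protocols. The table deposited by the authors holds 1 log2 expression value per probe set and array. The log base was read from the values (2.14 to 14.5). The sources used here do not say by what method the probes were summarised or normalized. Of 35556 probe sets 21789 had 1 gene symbol in the annotation, 1621 several and 12146 none, and sets with 1 symbol gave 19938 genes, the brightest set per gene. No value was missing, no arrays were identical, and array medians were 7.47 to 7.67.

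One model of 8 group means was fitted to all 24 arrays with limma 3.58.1 (R 4.3.3), using lmFit, contrasts.fit and eBayes with 16 residual degrees of freedom. P-values of each of 13 comparisons were adjusted by Benjamini and Hochberg over all genes. Since 3 biological replicates per group are labelled without saying what separates them, p-values measure the spread between these samples. The fit was also run on simulated data with independent noise and few changed genes. Those settings differ from these arrays, so that run is no check of the p-values here. The members and gene lists were chosen with earlier results of these data known, so their counts are descriptions. All members are named in every comparison. Of the other lists, genes called are named where 3 or fewer were called in a direction, otherwise the 3 largest. Genes most like a member are the 3 with the highest Pearson correlation over 18 arrays, passing over predicted genes, RIKEN clones and small RNAs. Eif2s1, Gdf15, Aars1, G6pdx and Fbn1 had no probe set of their own. Promoters came from RefSeq, GRCm38.p6. Alternatives for every comparison were a replicate block, only the groups compared, quantile normalization, median centring, scaling to one SD, no dim genes (the lowest 25%), averaged probe sets per gene, trend and robust variance, array weights, and leaving out each array in turn. The 7 comparisons that do not use the 6 siSCR arrays that stood apart were also fitted without them.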

Additional observations from a re-analysis of the deposited data

Results flagged for a closer look

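The step between ES cells and day 4 embryoid bodies differed between siPRMT1 and siSCR for 4 of the 9 genes, by limma's interaction term with 3 arrays per group, where 23.8% of all genes were called. The siPRMT1 change minus the siSCR change was -0.99 for Ddit4, -0.67 for Chac1, -0.31 for Ddit3 and -0.26 for Asns, in log2 units. The Ddit3 call was lost when any of 6 arrays was left out on its own (adjusted p between 0.0519 and 0.0803). All arrays behind these values lie on the same side of the border that sets the 6 siSCR arrays with DMSO or ATRA apart. Feeder and endoderm markers moved with the same step, and their part in it was not tested.

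The step between day 4 and DMSO differed between the lines for 6 of the 9 genes by the same kind of term, where 44.6% of all genes were called. The siPRMT1 change minus the siSCR change was 1.15 for Chac1, 1.12 for Slc7a11, 0.71 for Sesn2, 0.43 for Ddit3 and 0.39 for Ddit4, and -0.68 for Trib3. Ddit3 lost its call under quantile normalization (0.22, adjusted p = 0.142) and Ddit4 under scaling to one SD (0.12, adjusted p = 0.304). This term holds the 3 siSCR DMSO arrays, which stood apart from the other arrays, so the border and the step in siSCR cannot be told apart.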

How the results depend on the processing

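Of the 117 results of a member in a comparison, 115 kept their direction and their side of the threshold with the replicate block, and Atf5 lost its call in embryoid body formation of siPRMT1 (adjusted p = 0.0542) and with DMSO against day 4 in siSCR. The labels do not tie equal replicate numbers together: of 84 same-numbered pairs 23 had deviations correlated above 0.1 (median 0.0122), and 9 of 24 arrays were closest to their own number. Values that were not called as reported were called with the opposite sign for Atf4 in the knockdown with DMSO (-0.18) and ATRA (-0.18) under quantile normalization and with ATRA under scaling to one SD (-0.16), and for Asns with DMSO against day 4 in siSCR under scaling (0.37). The cause was not tested. With array weights, 5 of 9 members were called in the day 4 knockdown (3 as reported), 6 with ATRA in siPRMT1 (3) and 4 with DMSO against day 4 in siPRMT1 (1). Genes called with weights were 7218 in the ES knockdown (3747), 6106 in the day 4 knockdown (3669), 8969 in siSCR embryoid body formation (5632), 7640 and 1567 with ATRA in siPRMT1 and siSCR (2391 and 4663), 2536 with DMSO against day 4 in siPRMT1 (92), and 7688 in the embryoid body interaction (4754). Quantile normalization gave 5 members with ATRA in siPRMT1. With only the groups compared, 0 members and 544 genes were called with ATRA in siSCR, and 135 genes (646) in the ATRA interaction. Without the 6 siSCR arrays, 5 members were called in the day 4 knockdown, and 2 members and 286 genes with DMSO against day 4 in siPRMT1. That last comparison had 60 genes under scaling, 145 genes and 2 members with trend and robust variance, and 2 members without the dimmest genes. Without 1 array at a time, members called in the ES knockdown were 3 to 4 (5 as reported), genes 2924 to 3172. Genes called with DMSO against day 4 in siPRMT1 were 29 to 36, whichever array was left out. Genes in the ATRA interaction were 304 (without siPRMT1 ATRA replicate 2) to 897 (without siPRMT1 ATRA replicate 3). Averaging probe sets per gene left all 117 results as they were. Each member has 1 probe set, so this setting could not move a member's value and is no check of the members.

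The share of calls that were higher moved with the scaling. In the ES knockdown it was 40.6% as deposited and 58.8% after median centring, in siSCR embryoid body formation 51.3% and 66.1%, with ATRA 50.5% and 35.1% in siPRMT1 and 47.8% and 27.4% in siSCR, and with DMSO against day 4 in siSCR 50.4% and 62%. In the day 4 knockdown it was 61.9% as deposited, 51.2% after quantile normalization and 51.9% after scaling. With DMSO against day 4 in siPRMT1 it was 66.3%, and 76.5%, 82.4% and 83.3% after quantile normalization, centring and scaling. In the embryoid body interaction it was 63%, and 52.1%, 48.6% and 52.7%, and in the DMSO interaction 56.3% and 44.3% after centring. No scaling moved the median of all genes by over 0.1 on the log2 scale. Without detection calls, how far low signals such as Slc7a11 in ES cells stand above background is unknown.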

Other observations

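Slc7a11 is also a target of NRF2, the transcription factor of the response to oxidants, so 7 other measured NRF2 targets were listed. Over embryoid body formation 5 were higher and 2 lower in each line. Of all genes 23% were called higher and 18.4% lower in siPRMT1, and 14.5% and 13.7% in siSCR. The heme oxygenase gene Hmox1 rose by 1.19 in siPRMT1 and 0.68 in siSCR on the log2 scale. Gclm, the gene of a subunit of glutamate-cysteine ligase, rose by 0.71 and 0.38, and the quinone reductase gene Nqo1 by 0.56 and 0.25. Srxn1 (-0.17 and -0.19) and the thioredoxin reductase gene Txnrd1 (-0.26 and -0.43) were lower in both. The difference between lines was called for 2 of the 7, Hmox1 (0.51) and Gclm (0.33), which is near the share of all genes, 23.8%.

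In ES cells the knockdown had 1 NRF2 target higher, Gclc (0.13), and 3 lower, Nqo1 (-0.41), Hmox1 (-0.27) and Srxn1 (-0.19). Of all genes 7.63% were called higher there and 11.2% lower. At day 4 Gclm (0.27), Hmox1 (0.24) and Txnrd1 (0.22) were higher and Srxn1 (-0.17) was lower, where 11.4% and 7.01% of all genes were. With ATRA Srxn1 was higher in siPRMT1 (0.40) and in siSCR (0.57), and Gclc (-0.29), Gclm (-0.20) and Txnrd1 (-0.20) were lower in siSCR. With ATRA 6.05% of all genes were called higher and 5.94% lower in siPRMT1, and 11.2% and 12.2% in siSCR.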
